A study of Mus musculus with 2 samples.

Results

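The genes described here encode the receptors for the inhibitory transmitters GABA and glycine, together with the proteins that anchor and carry these receptors. They are 27 of the 43346 gene rows in the deposited tables and were chosen by name: 16 subunits of the GABA-A receptor, both subunits of the GABA-B receptor, 5 subunits of the glycine receptor, the scaffold gene Gphn and the 3 genes of the GABARAP family. All 27 had a row in both libraries, and no measured value was used to choose them. The samples were neural tubes of B6NCrl mice at embryonic day 14.5, profiled as total RNA from 10 ng per library to which spike-ins were added. By its label, replicate 1 came from pup 1 carried by pregnant female 1, and replicate 2 from pup 1 carried by pregnant female 2. These 2 libraries form a single untreated group with no engineered allele in the labels, so no contrast between conditions exists and no p-value is given. A difference between them describes the 2 libraries, and 1 library stands on each side.

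GABA-A and glycine receptors are pentameric chloride channels, and the subunits that assemble decide where they sit and how they respond. GABA-B receptors are obligate pairs of a ligand-binding and a signalling subunit that act through G proteins. In the embryonic spinal cord chloride is still high inside young neurons, so that GABA and glycine often depolarise them, and receptors with the glycine alpha 2 subunit are the fetal form.

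Expected counts over all rows totalled 33360108 in replicate 1 and 26025302 in replicate 2, of which 32255363 and 25428747 fell on gene rows. Markers of other tissues differed between the libraries, and not all in the same direction. The 6 meningeal and fibroblast markers summed to 44.2 and 978 TPM (a transcript level scaled for transcript length and depth) in replicates 1 and 2. The 8 sensory ganglion markers summed to 33.0 and 172 TPM, whereas 5 skeletal muscle genes summed to 40.3 and 20.5 TPM. The 8 markers of postmitotic neurons came to 4921 and 4791 TPM. None of 8 forebrain regulators reached 1 TPM in either library, although the labels name the neural tube without a level. Of 6 genes of remote organs such as liver and pancreas, 4 reached 1 TPM in both libraries (Alb, Apoa1, Afp and Nppa). A level of a few TPM thus occurred for genes that define other organs, although the pancreas gene Ins2 had 0 counts in both libraries. Sex is labelled as male and female pooled, whereas Xist had 25148 counts in replicate 1 and 13 in replicate 2. The Y-linked genes Ddx3y and Eif2s3y had 1 and 1750, and 0 and 991. By these genes replicate 1 was female and replicate 2 male, so in every ratio below sex and library cannot be told apart. In bulk RNA, fewer cells of a type and less RNA per cell cannot be told apart.

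Several results below turn on which transcript of a gene was read. Coding stretches by which these transcripts differ are shown first, from the GENCODE release 21 transcripts on GRCm38. Each is written 5′ to 3′ on the gene's own strand. Capitals mark coding bases present in the named transcript and absent from the other one named, and up to 12 flanking bases of its coding sequence are in lower case. Gphn-201 and Gphn-202 differ by 2 exons at chr12:78522898-78522954 and chr12:78532657-78532698, joined as 99 bases in Gphn-201 alone, and by a 108-base exon at chr12:78493950-78494057 in Gphn-202 alone. Both lengths are whole codons.
Gphn-201 segment: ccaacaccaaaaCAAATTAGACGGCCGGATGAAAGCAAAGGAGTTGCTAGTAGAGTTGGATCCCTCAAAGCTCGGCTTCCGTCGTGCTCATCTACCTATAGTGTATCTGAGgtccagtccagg
Gphn-202 segment: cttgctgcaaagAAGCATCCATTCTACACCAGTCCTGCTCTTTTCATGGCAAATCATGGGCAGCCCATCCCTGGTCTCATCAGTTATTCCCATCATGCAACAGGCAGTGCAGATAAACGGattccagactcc

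The GABA-B1 gene starts at separate sites, and these give the receptor forms GABA-B1a, with extracellular sushi domains, and GABA-B1b, without them. Gabbr1-201 opens its coding sequence with 82 bases at chr17:37046695-37046776. Gabbr1-203 begins 4665 bases further downstream and has 145 coding bases of its own at chr17:37050854-37050998, and both stretches start with the ATG.
Gabbr1-201 first coding exon: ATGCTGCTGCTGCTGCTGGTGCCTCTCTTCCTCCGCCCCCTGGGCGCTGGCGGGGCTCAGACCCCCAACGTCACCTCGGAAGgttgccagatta
Gabbr1-203 first coding segment: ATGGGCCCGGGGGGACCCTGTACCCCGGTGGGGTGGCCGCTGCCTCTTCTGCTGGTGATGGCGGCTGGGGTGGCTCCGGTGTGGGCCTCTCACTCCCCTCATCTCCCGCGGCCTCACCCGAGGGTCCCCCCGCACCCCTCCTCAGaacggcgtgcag

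Gabra3-202 begins 662 bases upstream of Gabra3-201 and carries its own first coding exon, 80 bases on the minus strand at chrX:72656655-72656734. The coding exon of Gabarap that Gabarap-202 skips is 94 bases long, lies at chr11:69992582-69992675 and is not a whole number of codons. The annotation gives Gabarap-201 a coding length of 351 bases and Gabarap-202 one of 318 bases.
Gabra3-202 first coding exon: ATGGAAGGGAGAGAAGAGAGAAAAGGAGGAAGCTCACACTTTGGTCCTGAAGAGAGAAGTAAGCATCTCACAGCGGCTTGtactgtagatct
Gabarap-201 segment: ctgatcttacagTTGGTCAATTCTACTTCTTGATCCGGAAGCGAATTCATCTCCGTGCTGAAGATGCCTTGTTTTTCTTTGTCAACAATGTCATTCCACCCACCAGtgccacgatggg

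Most of these genes were expressed at this stage, at levels that ran from 0 to 529.8 TPM. At least 1 TPM was reached in both libraries by 19 of 27, against 34.7% of all gene rows and 60.8% of protein-coding gene rows. The other 8 were below 1 TPM in both. The median of the 27 levels was 12.9 TPM in replicate 1 and 9.68 TPM in replicate 2, beside 0.10 and 0.09 TPM over all gene rows and 4.88 and 5.67 TPM over protein-coding rows. The plot of levels by gene shows 3 tiers. Gabarap and Gabarapl2 stood at or above 383 TPM, 17 genes lay between 1.54 and 81.7 TPM, and the remaining 8 lay at or below 0.55 TPM.

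**Figure D1:**
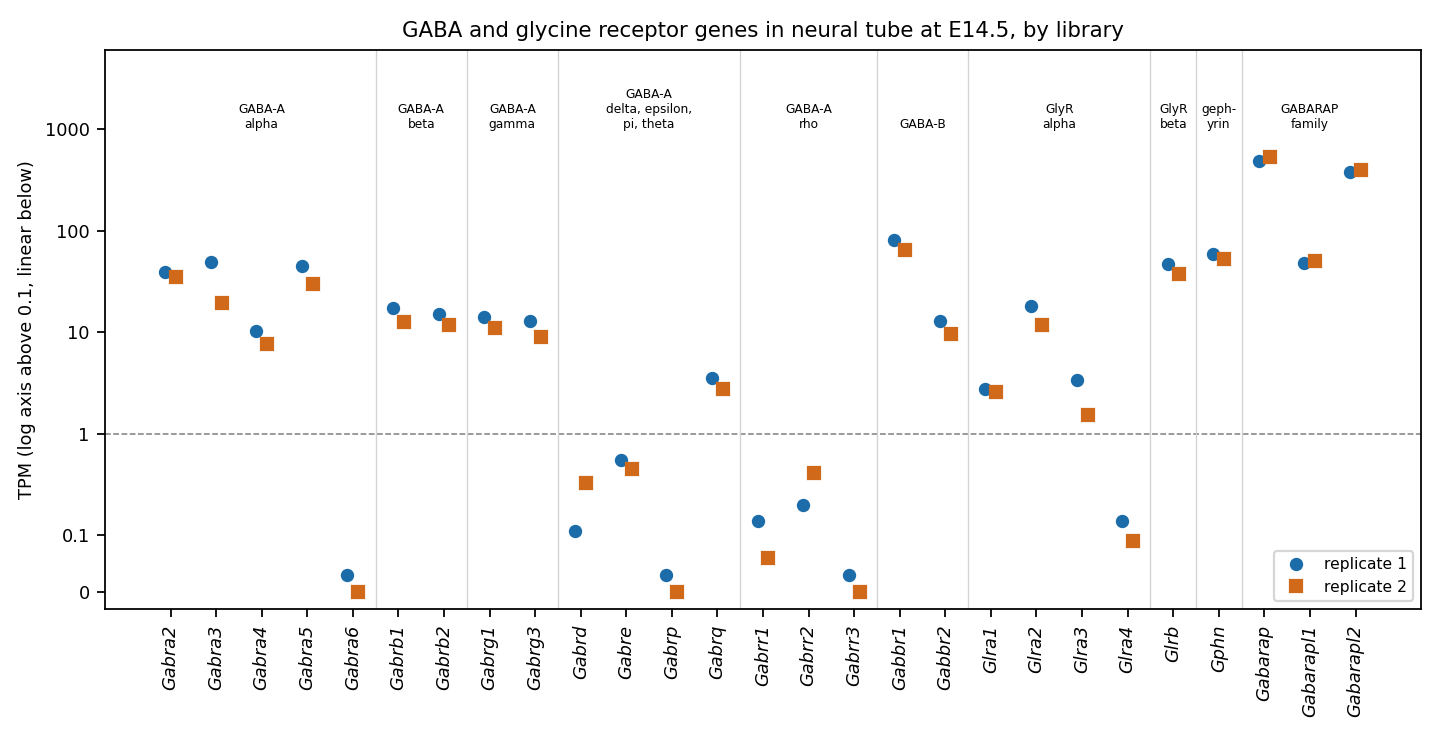
Level of each of the 27 genes in TPM (y axis, logarithmic above 0.1 and linear below) in replicate 1 (circles) and replicate 2 (squares), grouped by subunit class; the dashed line marks 1 TPM. Gabarap reaches 487 and 529.8 TPM, the alpha genes Gabra2, Gabra3 and Gabra5 lie between 19.4 and 49.2 TPM, and Gabra6, Gabrp and Gabrr3 are at 0.03 and 0 TPM.

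The alpha subunits, which with beta subunits form the GABA site and set much of the receptor's pharmacology, made up most of the GABA-A subunit RNA listed here. Gabra5, known in adults for extrasynaptic receptors in the hippocampus, had 44.9 TPM in replicate 1 and 29.96 TPM in replicate 2. Gabra2, a synaptic subunit abundant in embryonic cord, had 38.9 and 35.0 TPM. Gabra3, common in developing and monoaminergic neurons, had 49.2 and 19.4 TPM and was the highest alpha gene in replicate 1 and below Gabra2 and Gabra5 in replicate 2. These 3 genes overlapped in their ranges and cannot be ordered by level. Together they held 92.8% and 91.6% of the TPM of the 5 alpha genes. Their shares of that sum were 27.1% and 38.0% for Gabra2, 34.3% and 21.1% for Gabra3, and 31.3% and 32.5% for Gabra5, so the share of Gabra5 moved least and those of Gabra2 and Gabra3 moved in opposite directions. Gabra4, which in adults pairs with delta in extrasynaptic receptors, had 10.3 and 7.70 TPM, and every other expressed alpha gene was above it in both libraries. Gabra6, the cerebellar granule cell subunit, had 1 count in replicate 1 and 0 in replicate 2, which for a count of 0 allows up to 0.0976 TPM there (3 counts).

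Beta subunits complete the GABA binding site and are needed for the channel to reach the surface. Gabrb1 had 17.5 and 12.7 TPM and Gabrb2 had 15.0 and 11.9 TPM. The ranges of both genes overlapped, with Gabrb1 at 1.17 and 1.07 times Gabrb2 within each library. The gamma subunits, which with alpha subunits form the benzodiazepine site and tie receptors to synapses, gave a similar picture. Gabrg1 had 14.1 and 11.0 TPM and Gabrg3 had 12.9 and 9.00 TPM, a ratio of 1.09 and 1.23. That ratio compares gene totals. Transcripts typed as protein coding held 46.7% and 46.2% of the Gabrg3 TPM, against 100% of the Gabrg1 TPM in both libraries. In the order of mean levels, from Gabrb1 through Glra2, Gabrb2, Gabrg1, Gabbr2 and Gabrg3 down to Gabra4, every pair of neighbours overlapped between the libraries, whereas Gabrb1 lay below both values of Gabra3.

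The accessory classes of GABA-A subunits were low. Gabrq, the theta subunit of hypothalamic and brainstem neurons, was the only one of the delta, epsilon, pi and theta genes to reach 1 TPM, at 3.53 and 2.79 TPM. Gabre, the epsilon subunit, had 0.55 and 0.45 TPM from 28 and 17 counts. Gabrd, the delta subunit of tonic inhibition, had 4 and 6 counts, and Gabrp, the pi subunit known from reproductive tissue, had 2 and 0. Of the rho subunits, which form the homomeric receptors best known from retina, Gabrr2 had 7 and 8 counts, Gabrr1 6 and 2, and Gabrr3 1 and 0. The 3 rho genes together came to 0.37 and 0.47 TPM. These counts lie near the 3 that a count of 0 allows, and no order among them can be read.

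Of the GABA-B pair, Gabbr1, which binds GABA, had 81.7 and 64.7 TPM, the highest level of any receptor subunit gene here in both libraries. Gabbr2, which couples to the G protein and brings Gabbr1 to the surface, had 12.8 and 9.68 TPM. Gabbr1 was thus 6.39 and 6.69 times Gabbr2, a ratio that differed little between libraries although both levels did. The sum of both genes was 84.5 ± 14.2 TPM (SD, n = 2), compared with 174 ± 47.1 TPM for the 16 GABA-A subunit genes listed.

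The glycine receptor was represented by its fetal alpha subunit and by beta. Glra2, the fetal subunit, had 18.2 and 11.7 TPM and made up 74.3% and 73.7% of the TPM of the 4 glycine alpha genes. Glra1, which replaces it in adult cord, had 2.75 and 2.57 TPM from 126 and 88 counts. Glra3, found in adult dorsal horn, had 3.42 and 1.54 TPM from 131 and 43 counts, and its range held that of Glra1. Glra4 had 5 and 2 counts. Glrb, the beta subunit that binds gephyrin, had 47.2 and 37.2 TPM, or 1.92 and 2.33 times the 4 alpha genes together. The levels of Glra1, Glra3 and Gabrq fall in the range of the remote-organ genes, whose median was 1.88 and 1.83 TPM, and whether neighbouring tissue contributed to them was not tested.

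Gphn encodes gephyrin, the scaffold that holds glycine and many GABA-A receptors under the synapse and that also serves in making the molybdenum cofactor. It had 58.5 and 52.4 TPM, which was 1.24 and 1.41 times Glrb. The GABARAP family, ubiquitin-like proteins named for binding a GABA-A gamma subunit and better known from autophagosomes, stood far above the receptors. Gabarap had 487 and 529.8 TPM (mean 508 ± 30.4, SD, n = 2), Gabarapl2 had 383 and 399 TPM (391 ± 11.5) and Gabarapl1 had 48.0 and 50.9 TPM (49.5 ± 2.07). Gabarap exceeded Gabarapl1 by 10.1 and 10.4 times, and all 3 ranges were separate. In Gabarapl2-203, the leading transcript of its gene, 35.1% of all 50-base windows also occurred exactly in transcripts of other genes, and in Gabarapl1-201 18.6% did, so the levels of these 2 genes are less certain than that of Gabarap, where none did. For the receptor subunit genes and Gphn the shared part was at most 4.4%.

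Nearly all of these genes were lower in replicate 2. Ratios of replicate 2 to replicate 1 were taken on counts after scaling each library with edgeR's TMM, which sets the bulk of genes equal, for the 20 genes whose mean count was 10 or more. Of these, 19 had a ratio below 1, compared with 50.2% of the 17623 genes tested. For 16 the exact (Clopper-Pearson) 95% counting interval also lay below 1, and for 0 it lay above. The share of all genes tested whose interval excludes 1 was not computed, so this count has no baseline. At high counts such intervals exclude 1 at small differences, as for Tubb3 (0.95, 0.936 to 0.963) and Dcx (1.02, 1.01 to 1.04). The median log2 ratio was −0.44 over the 20 genes and −0.00 over all genes tested. By class it was −0.48 for the 10 GABA-A genes tested, −0.45 for both GABA-B genes, −0.59 for 4 glycine receptor genes and −0.01 for the GABARAP family. All 16 receptor subunit genes tested had ratios below 1, though the intervals of Glra1 (0.6675 to 1.17) and Gabre (0.396 to 1.46) held 1. In the GABARAP family, Gabarap (1.03, interval 0.999 to 1.07) and Gabarapl1 (0.995, 0.924 to 1.07) had intervals that held 1. That of Gabarapl2 (0.961, 0.9285 to 0.9944) lay below 1.

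At least 1.5-fold higher in replicate 1 were 5 of the 20 genes, against 8.37% of all genes, and 0 were that much higher in replicate 2, against 10.8%. Gabra3 was the clearest case. It had 2340 and 813 counts, a 2.27-fold difference with a counting interval of 2.09 to 2.46, and its library levels lay further apart than those of any other alpha gene. Glra3, with 131 and 43 counts, was 2.38-fold higher in replicate 1 (interval 1.69 to 3.47), where the small counts leave a wide interval. Glra2 was 1.66-fold higher (1127 and 536 counts), Gabra5 1.60-fold (2323 and 1146) and Gabrg3 1.56-fold (741 and 375). At 2-fold only Gabra3 and Glra3 remained, against 3.01% of all genes, and 0 were that much higher in replicate 2, against 5.66%. Ratios nearer to 1 were those of Gabra2, with 0.845 (0.784 to 0.909), and Gabrb2, with 0.811 (0.732 to 0.896). The interval of Gabra3 (0.407 to 0.478) did not overlap that of Gabra2 or of Gabra5 (0.583 to 0.673), so the alpha genes differed unequally between the libraries beyond counting error.

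**Figure D2:**
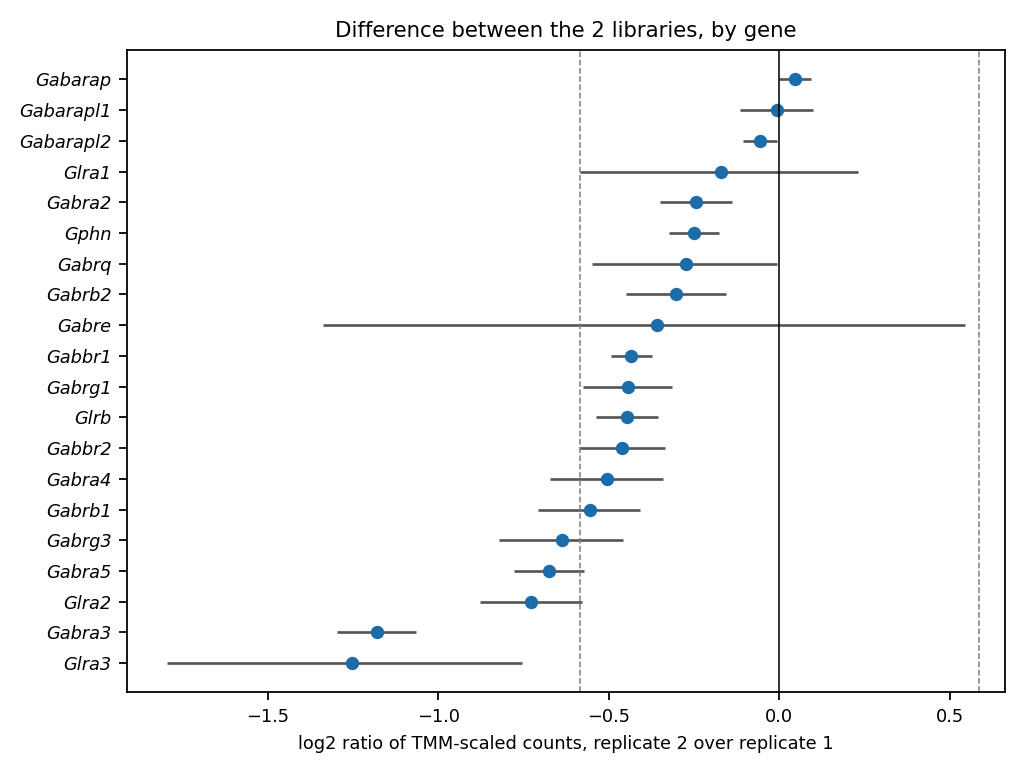
Log2 ratio of TMM-scaled counts, replicate 2 over replicate 1 (x axis), for the 20 genes whose mean count was 10 or more (y axis); points are ratios, lines are exact 95% counting intervals, and dashed lines mark 1.5-fold. All but Gabarap lie below 0, and Glra3 and Gabra3 lie lowest at −1.25 and −1.18.

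The direction of these ratios depends on the scaling. When libraries were scaled by spike-in totals, the median of all genes tested moved up by 0.54 on the log2 scale (1.46-fold), 13 of the 20 genes changed direction and 6 stayed below 1, against 9.35% of all genes. Those 6 were Gabra3, Glra3, Glra2, Gabra5, Gabrg3 and Gabrb1. Gabra3 and Glra3 stayed at least 1.5-fold higher in replicate 1 under this scaling, against 2.25% of all genes, and 0 stayed 2-fold higher, against 0.828%. The median of the 20 genes was then 0.11 and that of all genes 0.54. This scaling adds the same amount to every log2 ratio, so the position of a gene relative to all genes cannot change with it. Counting intervals cover counting error only.

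Several cell type lists moved with this difference, and their part in it was not tested. The median log2 ratio was −0.16 for the 8 markers of postmitotic neurons, with 6 below 0, and 0.39 for the 7 progenitor markers. It was 5.03 for 6 meningeal and fibroblast genes and 5.79 for 8 sensory ganglion genes, of which 7 were at least 1.5-fold higher in replicate 2 and Calca, with 406 and 215 counts, was lower. Schwann cell, endothelial and microglial markers had medians of 2.09, 1.14 and 0.71, and the 5 skeletal muscle genes one of −1.08. The receptor genes therefore lay lower than the neuron markers in replicate 2, by medians of −0.45 for the 16 subunit genes and −0.16 for the marker list. Of the 4 X-linked genes among those tested (Gabra3, Glra2, Gabrq and Gabre), all were below 1 with a median log2 ratio of −0.54. The 16 others had a median of −0.44, and all 601 X-linked genes tested had one of −0.03.

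**Figure D3:**
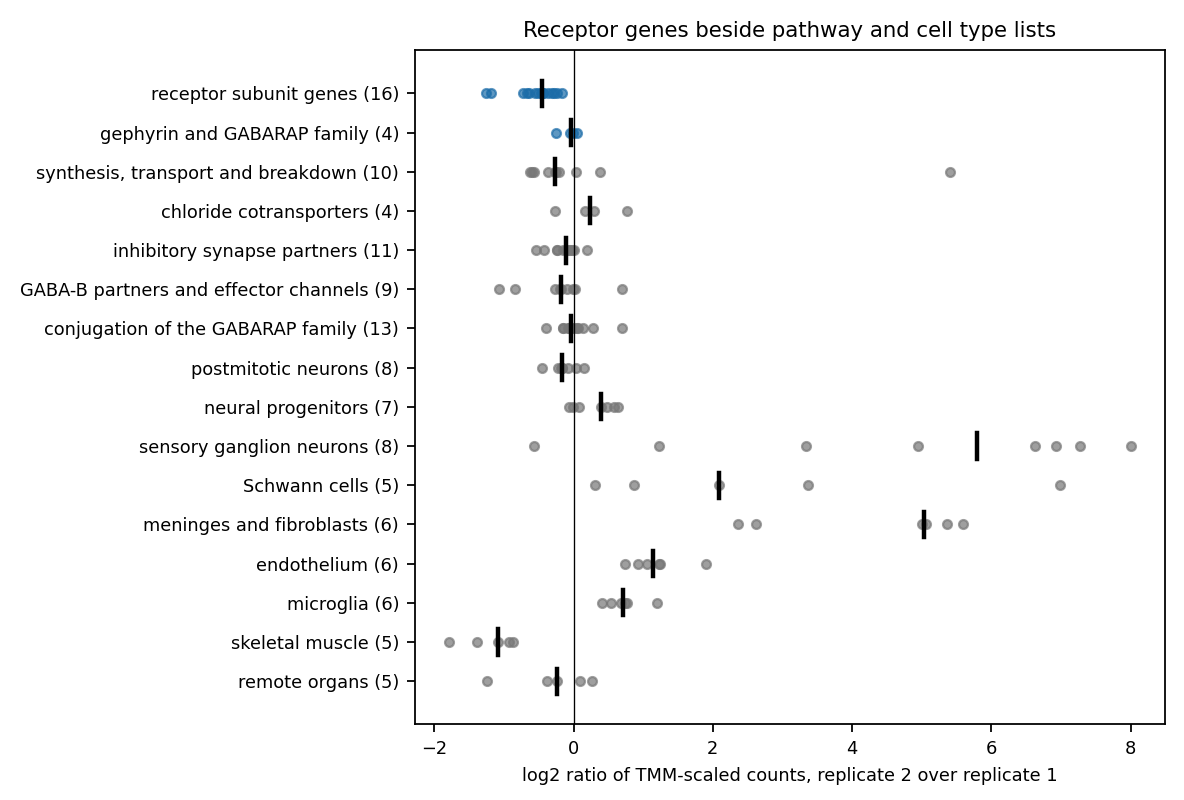
Log2 ratio of TMM-scaled counts, replicate 2 over replicate 1 (x axis), for each tested gene of the receptor, pathway and cell type lists (y axis, number of genes in brackets); points are genes and black bars are medians. The 16 receptor subunit genes lie between −1.25 and −0.17, while the sensory ganglion and meningeal lists have medians of 5.79 and 5.03.

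Among the 12 genes at 1 TPM or more with several annotated transcripts, 10 had the same leading transcript in both libraries, against 88.8% of 10043 such genes. The exceptions were Gabra3 and Gphn. For Gabra3 the longer Gabra3-201 had 42.6% of the gene's TPM in replicate 1 and 68.0% in replicate 2. Gabra3-202, with the first coding exon printed above, had 45.7% and 17.7%. In estimated counts Gabra3-202 went from 770 in replicate 1 to 87.2 in replicate 2, with deposited posterior SDs of 42.8 and 29.4 counts. After TMM scaling that was a 6.96-fold difference, against 1.69-fold for Gabra3-201 (1512 and 705 counts). The unequal split of Gabra3 between the libraries was therefore larger than the estimation error of either transcript. Both transcripts also differ at the 3′ end, which lies at chrX:72432681 for Gabra3-201 and chrX:72434575 for Gabra3-202. Reads over the printed first exon were not counted separately. Whether the split rests on the start or on the end of the transcripts was not tested.

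The 250 bases upstream of the farther RefSeq start of Gabra3 (GRCm38.p6, chrX:72656920-72657169, minus strand) are printed because they precede Gabra3-202, whose share differed between the libraries. Both RefSeq windows of the gene lie at that start, and neither covers the start of Gabra3-201. Capitals mark TATAAA and CCAAT on either strand, 1 match each.
Gabra3 upstream of Gabra3-202: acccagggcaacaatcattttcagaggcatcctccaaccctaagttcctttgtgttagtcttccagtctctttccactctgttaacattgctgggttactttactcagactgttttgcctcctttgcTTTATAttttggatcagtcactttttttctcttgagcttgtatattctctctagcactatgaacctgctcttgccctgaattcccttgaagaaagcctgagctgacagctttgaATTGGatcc
This stretch holds 0 CpG. Over the 29 RefSeq promoter windows of 300 bases that 25 of the 27 genes have (250 bases before and 50 after a start), TATAAA was found on either strand in 4, against 13.6% of all 32851 windows. GGGCGG occurred in 15, against 35.7%, and CCAAT in 13, against 37.4%. Both Gabra3 windows overlap and hold the same TATAAA and CCAAT matches, so these are counted for each window. The 9 letters TTCAGCACC, the left part of the element bound by the neuronal repressor REST, were found in 0 of 29, against 0.371%, which says only that these letters are absent from these windows. The median number of CpG per window was 9, beside 7 over all windows. Genes at 1 TPM or more had a median of 13 CpG (0 to 46, 18 genes with a window), and those below had a median of 3 (2 to 24, 7 genes). The ranges overlapped, and Gabra3 was at 0 CpG with a mean of 34.3 TPM.

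For Gphn the change of leading transcript was small. Gphn-201 had 57.5% and 49.3% of the gene's TPM and Gphn-202 had 42.5% and 50.7%, with posterior SDs of 127 and 81.1 counts on totals of 3783 and 2507. Only these 2 Gphn transcripts were quantified, so all reads of the gene were split between them. Reads over the cassettes printed above were not counted separately, so how much gephyrin RNA carries either one cannot be read from these shares. Gabbr1 kept Gabbr1-203, the GABA-B1b form, in the lead with 51.3% and 42.0%, and Gabbr1-201, the GABA-B1a form, followed with 27.8% and 34.4%. After TMM scaling the ratio of replicate 2 to replicate 1 was 0.608 for Gabbr1-203 and 0.919 for Gabbr1-201, so most of the lower count of Gabbr1 in replicate 2 was assigned to the b form.

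**Figure D4:**
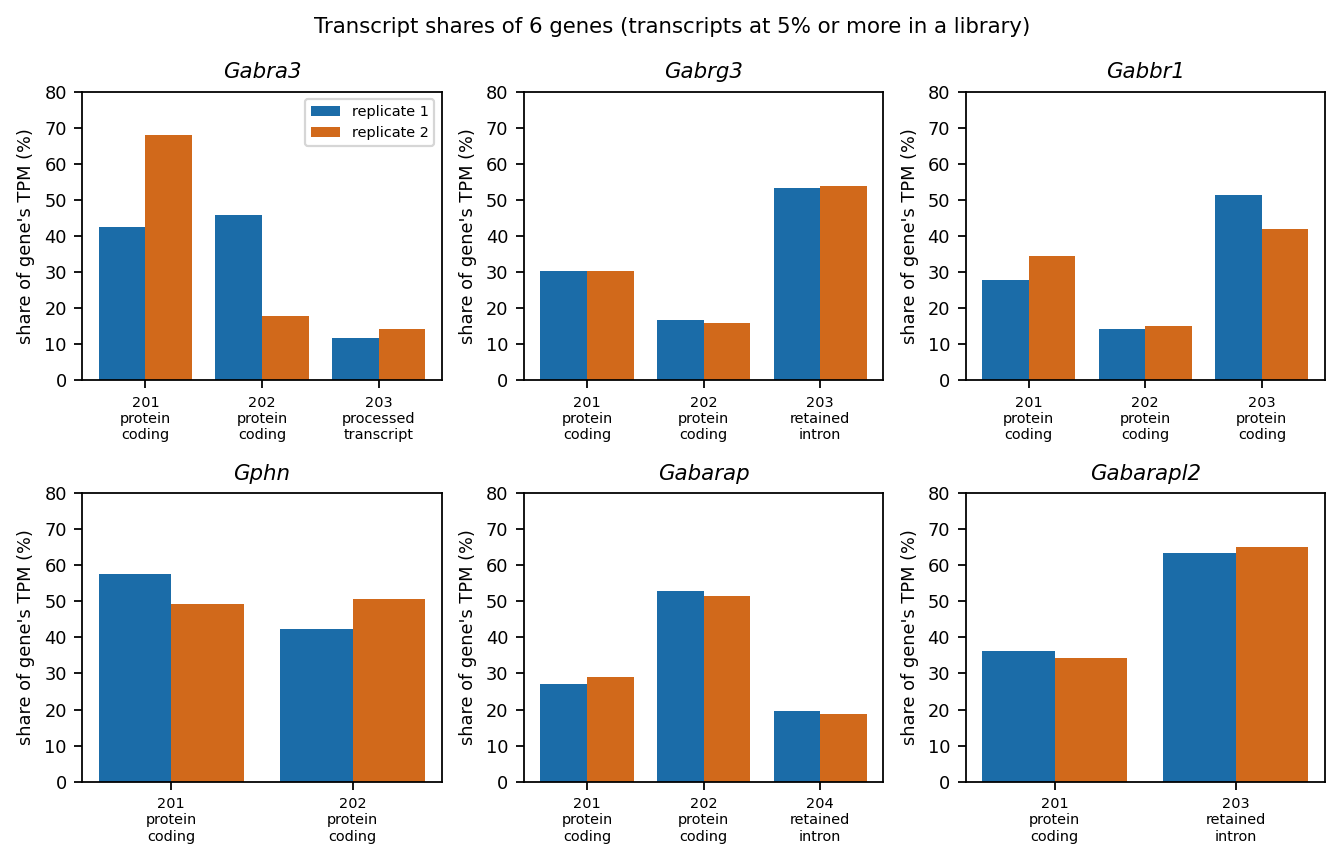
Share of a gene's TPM (y axis, percent) assigned to each transcript (x axis, transcript number and annotated type) in replicate 1 and replicate 2 for 6 genes; transcripts with at least 5% in a library are shown. Gabra3-202 falls from 45.7% to 17.7%, whereas the retained-intron transcripts of Gabrg3 and Gabarapl2 stay between 53.3% and 65.2%.

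Among the 12 genes at 1 TPM or more with several annotated transcripts, the leading transcript by TPM was not typed as coding in 2, Gabrg3 and Gabarapl2. The share of all such genes with a leading transcript not typed as coding was not computed, so whether this is unusual cannot be said. Gabrg3-203, a 1496-base transcript typed as retained intron, had 53.3% and 53.8% of the gene's TPM. The full-length Gabrg3-202 is 9767 bases long, with 1401 coding bases, and had 16.5% and 15.9% of TPM but 56.4% and 55.3% of the estimated counts. Gabarapl2-203, also typed as retained intron, had 63.5% and 65.2% of TPM and 41.9% and 43.8% of counts. Gabarap was led by Gabarap-202, which lacks the exon printed above, with 53.0% and 51.6%. Gabarap-201, which holds that exon, had 27.1% and 29.1%, and the retained-intron Gabarap-204 had 19.7% and 18.7%. In counts Gabarap-201 and Gabarap-202 were close, with 39.9% and 40.6% of the gene in replicate 1 and 42.4% and 39.1% in replicate 2. Over all 27 genes, transcripts typed as protein coding held 70.0% and 67.8% of TPM and 84.2% and 81.8% of estimated counts. These shares were not computed for all gene rows. The single transcript of Gabra2 is typed as nonsense-mediated decay in release 21, whose model differs in version and length from the one the authors used, so its 0% is a matter of annotation. Among other genes the lead was firmer, with Glrb-201 at 94.8% and 88.0%, Gabrb2-201 at 76.2% and 88.6%, Gabrq-202 at 72.8% and 88.2%, and Glra1-202 at 91.3% and 100%.

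Many of the genes lie next to each other in the genome, and neighbours did not always share a level. On chromosome 5, Gabrg1, Gabra2, Gabra4 and Gabrb1 follow each other and all 4 were expressed. Gabra4 (chr5:71569749-71658308, minus strand) and Gabrb1 (chr5:71658113-72149037, plus strand) lie head to head and overlap by 196 bases in GENCODE release 21. Their ratios between libraries were 0.704 (0.627 to 0.789) and 0.680 (0.613 to 0.753), and Gabrb1 was 1.71 and 1.65 times Gabra4 in TPM. The strand setting of the counting is not given in the sources used here, so reads from the overlap could have been assigned to either gene. On chromosome 7, Gabrg3 and Gabra5 lie 20.5 kb apart on the minus strand and had ratios of 0.643 and 0.626. On the X chromosome, Gabra3 lies 157.9 kb from Gabre and 168.3 kb from Gabrq, and the levels of these 3 neighbours ran from 0.45 TPM for Gabre to 49.2 TPM for Gabra3. On chromosome 11, Gabra6 had 0.03 and 0 TPM and Gabrb2, 98.7 kb away, had 15.0 and 11.9 TPM. Gabrr2 and Gabrr1, 36.7 kb apart on chromosome 4, were both under 1 TPM.

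The genes that make, move and break down the transmitters were nearly all expressed. Of 10 such genes, 9 reached 1 TPM in both libraries, 1 was at least 1.5-fold higher in replicate 2 and 2 in replicate 1, with a median log2 ratio of −0.26. Among them were the synthesis gene Gad1 (93.4 and 68.3 TPM) and Abat, the GABA transaminase (67.0 and 93.95 TPM). The gene higher in replicate 2 was Slc6a13, the GABA transporter GAT2 of meninges and blood vessels, with 30 and 1016 counts, and the genes higher in replicate 1 were the transporter genes Slc6a11 and Slc6a9. Of 4 cation-chloride cotransporter genes, 1 (Slc12a7, 417 and 562 counts) was at least 1.5-fold higher in replicate 2 and 0 in replicate 1. Slc12a5, which exports chloride from mature neurons, had 32.6 and 26.4 TPM, and Slc12a2, which imports chloride, had 6.24 and 8.18 TPM.

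None of 11 partners of the inhibitory synapse passed 1.5-fold in either direction, with a median log2 ratio of −0.10. The highest were Dynll1, a dynein light chain that binds gephyrin (912 and 929 TPM), the actin regulator Pfn1 (458 and 561 TPM) and Mocs2, a molybdenum cofactor gene (106 and 111 TPM). Of 9 partners and effector channels of GABA-B receptors, 1 (Kctd12b, 139 and 177 counts) was higher in replicate 2 and 2 in replicate 1 by that measure, with a median of −0.18. Kctd8, Ajap1 and Kctd12, all proteins that bind the receptor, led with 28.3 and 28.1, 24.8 and 22.6, and 17.0 and 20.2 TPM. The 2 genes higher in replicate 1 were the potassium channel genes Kcnj6 (211 and 93 counts) and Kcnj9 (139 and 52 counts). Of 13 genes of the conjugation system that the GABARAP family shares with autophagy, 1 (Atg4a, 215 and 275 counts) was higher in replicate 2 and 0 in replicate 1, and the median was −0.04. Map1lc3a (541 and 440 TPM), Map1lc3b (328 and 336 TPM) and the cargo receptor gene Sqstm1 (305 and 318 TPM) led that list.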

How the data were processed

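The 2 libraries hold total RNA of neural tube at embryonic day 14.5. Per the deposited texts, mm10 and GENCODE release 4 were used. Aligner, quantifier and strand setting: not given in the sources used here. Expected counts that the authors deposited are read estimates without normalisation, per the file headers and their sums. The deposited TPM and FPKM columns correct for effective length and depth. The percent columns, per the file headers, split a gene's TPM among its transcripts. Deposited posterior spreads (unit score) give the estimation error of transcript counts, per the file headers.

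The members were selected by symbol, and the 5 pathway and 10 cell type lists were chosen, with earlier results of these data known. Named genes are all members and, of each pathway list, the 3 highest by mean TPM and genes that a sentence turns on. A few genes under this rule are not reported here but count in the list statistics. Symbols, types and coordinates (1-based) came from GENCODE release 21 for GRCm38 by identifier without version, matching 42462 of 43346 gene rows. Expected counts were rounded to whole numbers. TMM ratios (edgeR 4.0.16, R 4.3.3) used a prior count of 0.5 and a mean count of at least 10, and no p-value was computed. Scaling alternatives were DESeq2 1.42.0 size factors, total counts and spike-in totals. The exact 95% intervals and the limit that 0 counts allow (3 counts) reflect counting alone, since amplified reads are not independent molecules. Counts were also simulated for replicate 2 against replicate 1 with a coefficient of variation of 0.2, which was assumed and not estimated from these libraries. There 84% of 100 genes changed 2-fold, 100% of 100 changed 4-fold and 19.7% of 17395 unchanged genes passed 1.5-fold. These shares follow from that setting and are not error rates of the real counts. Ranges of neighbouring genes count as separate where the libraries of one do not overlap those of the other, which held for 11 of 26 pairs in order of mean TPM. Other steps used Python 3.11.15, pandas 2.3.3, SciPy 1.17.1 and matplotlib 3.10.9.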

Additional observations from a re-analysis of the deposited data

How the results depend on the processing

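The number of genes at 1 TPM or more was 19 with each library alone, with posterior mean TPM and at 0.5 TPM, 18 at 2 TPM or 1 FPKM, and 16 at 5 TPM. Without the highest gene, the GABA-B, GABARAP and glycine receptor sums fell to 11.2, 440.6 and 20.2 TPM, and without gephyrin and the GABARAP family the median fell to 8.98 TPM. With each library alone the sums ran from 140.8 to 207 TPM for GABA-A, 74.4 to 94.5 for GABA-B, 53.1 to 71.8 for the glycine receptor, 52.4 to 58.5 for Gphn and 918 to 980 for GABARAP, and the median from 9.68 to 12.9. The 5 genes at least 1.5-fold higher in replicate 1 became 2 at 2-fold, 2 under spike-in totals, 3 by the ratio of TPM and 10 with no count filter, and 5 under the other settings tried. The 0 genes higher in replicate 2 became 1 under spike-in totals and 1 with no count filter. Single ratios moved beyond their interval for 19 of 20 genes under spike-in totals and for 6 by the ratio of TPM, and single levels moved by more than their SD for 8 of 27 with posterior mean TPM. The count of genes with the same leading transcript was 10 by posterior means and 11 of 16 with no level filter, and the coding share was 67.8% and 70.0% with each library alone. By the ratio of TPM, Gabarapl1 and Gabarapl2 changed direction. DESeq2 size factors, total counts and a prior count of 2 changed no direction of the 20 ratios. With 2 libraries no replicate spread stands behind a ratio, and depth limits the 7 genes below a mean count of 10.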
